A study of Homo sapiens with 6 samples.

Results

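Transcripts of 8 amino acid transporters that growing cells rely on were described in 6 RNA-seq libraries of a human cell line: SLC7A5, SLC3A2, SLC1A5, SLC1A4, SLC38A1, SLC38A2, SLC7A1 and SLC7A6. They were chosen by gene name, with their treatment difference and the offset of replicate 1 already known from these libraries. Values of those comparisons therefore describe the 8 genes. Limma's calls for them are given as counts beside those of all genes, and nothing is supported with them. All 8 were listed among the 13696 genes of the deposited table, and all 8 were among the 13616 genes tested, which had a mean of at least 1 CPM (counts scaled to a common library size).

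Cells that grow take in amino acids for protein and nucleotide synthesis through a small set of plasma membrane carriers. SLC7A5 (LAT1) exchanges intracellular amino acids for leucine and other large neutral ones. It does so only when bound to SLC3A2 (CD98 heavy chain), the glycoprotein that brings it to the surface, and SLC7A6 (y+LAT2) uses the same heavy chain. SLC1A5 (ASCT2) and SLC38A1 and SLC38A2 (SNAT1 and SNAT2) carry glutamine and other small neutral amino acids, SLC1A4 (ASCT1) carries alanine, serine, cysteine and threonine, and SLC7A1 (CAT1) carries arginine and lysine. Leucine and arginine taken up this way signal to the kinase mTORC1. The transcription factors ATF4, made when amino acids run short, and MYC are known to act on several of these genes.

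The cells were hTERT RPE-1, a line of retinal pigment epithelial origin immortalized with telomerase. The pre-dose group received 25 nM camptothecin (CPT), a topoisomerase I inhibitor, for 1 h, and was harvested 24 h after the drug was taken away. The untreated group received no drug. Each group had 3 libraries of poly-A RNA, numbered 1 to 3 in the labels. Their effective read totals, recovered from the lowest deposited values, were 26336941 to 31780391. These are scaling totals and not numbers of reads sequenced. The labels do not say that the libraries of a group were grown apart. The p-values therefore cover the spread between these libraries only, and that spread may be technical.

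The replicate 1 libraries stood apart from the others. On the first principal component, with 59.4% of the variance, pre-dose replicate 1 lay at -18.0 and untreated replicate 1 at -20.6, and the other 4 libraries lay between 6.94 and 16.4. The labels name no batch. Of a marker list fixed for pigment epithelium, 5 of 18 were listed (BEST1, MITF, OTX2, RDH5 and SIX3), while RPE65, RLBP1, TYR and LRAT were not. They summed to 168 to 173 CPM in pre-dose and 158 to 175 CPM in untreated libraries. SIX3 was the largest part of that sum, with a mean of 85.7 CPM against 47.1 CPM for MITF, the next highest. Of the 5, limma called only SIX3 as higher in replicate 1 (0.24 in log2(CPM + 1), adjusted p = 0.00204). The sum therefore describes SIX3 more than any other marker and is not read as cell identity. The epithelial keratin KRT8 had 869 to 979 CPM and the mesenchymal filament gene VIM 8644 to 11123 CPM over the 6 libraries. Of the other marker lists, 8 of 9 mesenchymal, 3 of 8 epithelial, 3 of 7 neuronal and 1 of 6 blood markers were listed.

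SLC7A5 had the widest differences of the 8 genes, both between replicates and between the groups. Its levels were 562, 299 and 293 CPM in pre-dose replicates 1 to 3, against 580.3, 371 and 369.7 CPM in untreated replicates 1 to 3. Both replicate 1 libraries lay above the other 4, and the groups overlapped because pre-dose replicate 1 was above untreated replicates 2 and 3. The difference between pre-dose and untreated, in log2(CPM + 1), was -0.05 in the replicate 1 pair. It was -0.31 in the replicate 2 pair and -0.33 in the replicate 3 pair. Pairs here and below join libraries of the same number, a pairing that the labels do not state. Over all 6 libraries the treatment difference was -0.23 (SE 0.28, 95% interval -0.89 to 0.43). That fit had no replicate block, so its SE and interval take in the offset of replicate 1, as for the other genes below. With a replicate block the difference was the same (adjusted p = 0.274 in limma). In bulk libraries a lower level in every cell and fewer cells at a high level cannot be told apart.

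The heavy chain SLC3A2 was also high in replicate 1, and its pairs differed less among themselves than those of SLC7A5. It had 166, 112 and 107 CPM in pre-dose replicates 1 to 3, against 177, 121 and 120.3 CPM in untreated replicates 1 to 3. The replicate 1 libraries again lay above the other 4, and pre-dose was the lower library in each pair, with differences of -0.10, -0.11 and -0.17. The treatment difference over the 6 libraries was -0.13 (SE 0.21, 95% interval -0.61 to 0.36), again without a replicate block. With the block it was the same, with an adjusted p of 0.340 in limma.

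SLC7A6, the exchanger of arginine and neutral amino acids that shares the heavy chain, had 64.2, 51.2 and 53.4 CPM in pre-dose replicates 1 to 3, against 61.6, 54.0 and 58.6 CPM in untreated replicates 1 to 3. The replicate 1 libraries were the highest of both groups, with the pre-dose one on top. The pairs had differences of 0.06, -0.07 and -0.13, and the treatment difference was -0.05 (SE 0.098). SLC7A6 is uncertain, since 3371 of its exon bases also lie in exons of SLC7A6OS on the opposite strand (20.2 CPM) and the sources used here do not say whether reads were counted by strand.

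SLC7A1, the arginine and lysine carrier, had 162, 107 and 111 CPM in pre-dose replicates 1 to 3, against 165, 129 and 131 CPM in untreated replicates 1 to 3. As for SLC7A5, replicate 1 lay above the other 4 libraries and was nearly equal between the groups. Its pair differences were -0.03, -0.27 and -0.24, and the treatment difference was -0.18 (SE 0.17).

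**Figure D1:**
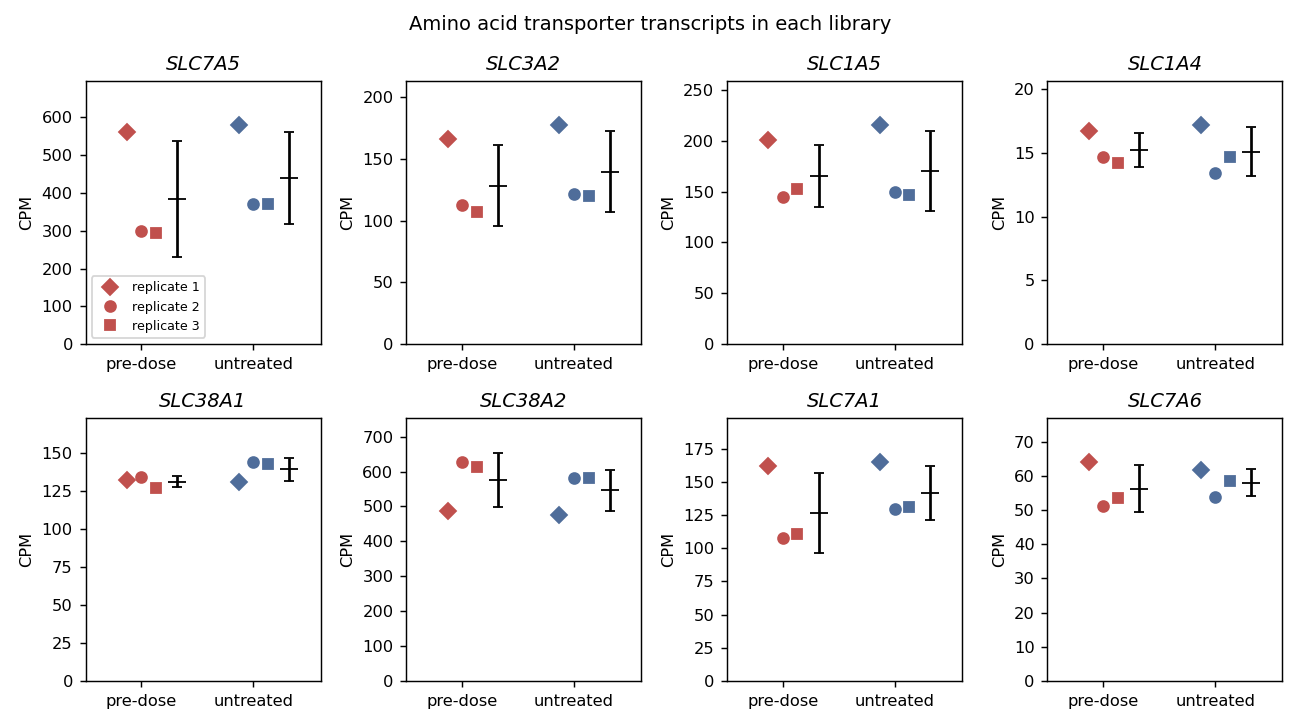
Level of each of the 8 transporters in CPM (y axes, from 0) in the 3 pre-dose libraries (red, left) and the 3 untreated libraries (blue, right), with diamonds for replicate 1, circles for replicate 2 and squares for replicate 3. The black marks are the mean ± SD of each group (n = 3). In 6 panels both diamonds lie above the other 4 libraries, in SLC38A2 both lie below, and in SLC38A1 they overlap with the rest.

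The glutamine carrier SLC1A5 had 200.3, 144 and 152 CPM in pre-dose replicates 1 to 3, against 215, 149 and 146 CPM in untreated replicates 1 to 3. Replicate 1 was the high library of both groups, and the other 4 libraries were mixed. The pair differences were -0.10, -0.05 and 0.05, with a treatment difference of -0.03 (SE 0.18). SLC1A5 shares 780 exon bases with an antisense gene that the table does not list.

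SLC1A4, the carrier of alanine, serine, cysteine and threonine, was the least abundant of the 8, with 16.7, 14.6 and 14.2 CPM in pre-dose replicates 1 to 3, against 17.2, 13.4 and 14.7 CPM in untreated replicates 1 to 3. Its differences between groups had no common sign, with 0.12 in the replicate 2 pair and -0.04 in both other pairs. The treatment difference was 0.01 (SE 0.11).

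SLC38A1 and SLC38A2, which cotransport sodium with glutamine, alanine and other small neutral amino acids, did not share the pattern. SLC38A2 had 487, 629 and 613 CPM in pre-dose replicates 1 to 3, against 477, 581 and 580.3 CPM in untreated replicates 1 to 3. It was the only one of the 8 with both replicate 1 libraries below the other 4, and the only one with the pre-dose library higher in every pair, by 0.03, 0.11 and 0.08. SLC38A1 had 132, 134 and 127 CPM in pre-dose replicates 1 to 3, against 130.5, 144 and 143 CPM in untreated replicates 1 to 3. Its replicate 1 libraries lay inside the range of the others, and its pair differences were 0.02, -0.11 and -0.17. The treatment difference was 0.07 (SE 0.12) for SLC38A2 and -0.09 (SE 0.061) for SLC38A1.

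**Figure D2:**
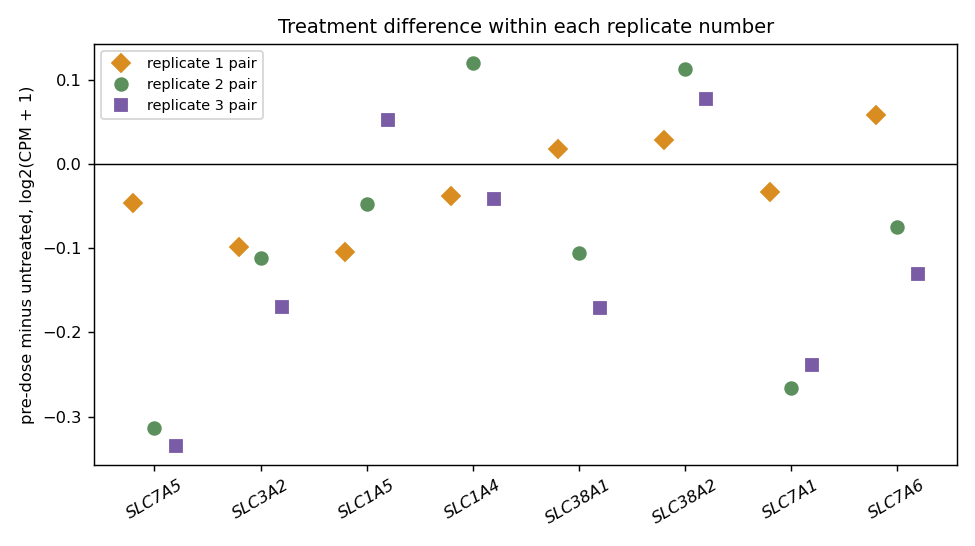
Difference between the pre-dose and the untreated library of the same replicate number in log2(CPM + 1) (y axis), for each transporter (x axis); 1 point per pair, with no error bars. SLC7A5 lies at -0.05 in the replicate 1 pair (diamond) and at -0.31 and -0.33 in the others. SLC7A1 lies at -0.03, -0.27 and -0.24. The labels do not state that equal numbers are pairs.

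The treatment difference passed limma's test for 0 of the 8 genes, beside 0% of all 13616 tested at an adjusted p of 0.05. Over all genes limma had 280 at an unadjusted p of 0.05, limma-voom on estimated counts called 0 (278 unadjusted), and limma-voom with library quality weights called 108, none of them among the 8. The pre-dose and untreated libraries overlapped for all 8 transporters, and did not for 6.55% of all genes. SLC7A5, SLC3A2 and SLC7A1 were lower in pre-dose in all 3 pairs, as were 16.3% of all genes, and SLC38A2 was higher in all 3, as were 15.6%. The median treatment difference was -0.07 over the 8 and -0.0013 over all genes. In the authors' deposited table, 0 of the 8 passed an adjusted p of 0.05, with values between 0.0579 (SLC38A1) and 0.969 (SLC1A4), beside 3.05% of its genes. The deposited fold changes run untreated over pre-dose; turned round, they were -0.33 for SLC7A5 and -0.24 for SLC7A1 on the log2 scale in the authors' deposited table.

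Without the replicate 1 libraries, which stand apart, the differences were those of replicates 2 and 3. In these 4 libraries the difference was -0.32 for SLC7A5 (SE 0.032, 95% interval -0.39 to -0.25), a pre-dose level of 0.799 times the untreated one. For SLC7A1 it was -0.25 (SE 0.037, 95% interval -0.33 to -0.17), or 0.840 times. SLC3A2 and SLC38A1 were at -0.14 each (SE 0.039), SLC7A6 at -0.10 (SE 0.052), SLC1A5 at 0.0032 (SE 0.038), SLC1A4 at 0.04 (SE 0.078) and SLC38A2 at 0.10 (SE 0.032). Limma called 2 of the 8 as lower, SLC7A5 and SLC7A1, beside 3.47% of all genes, and 0 of the 8 as higher, beside 2.89%. The 2 libraries of each group did not overlap for 6 of the 8 genes, all but SLC1A5 and SLC1A4, beside 51.0% of all genes. These 4 libraries are part of the comparison on which the genes were chosen. A replicate block takes equal numbers as pairs, which the labels do not state. With it 4 of the 8 were called as lower, SLC3A2 and SLC38A1 being added, beside 4.96% of all genes. The same 4 were called as lower without pre-dose replicate 2, beside 5.53%. Without pre-dose replicate 3, SLC38A2 was called as higher, beside 7.07%.

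Some cell type markers differed in the same 4 libraries. There limma called 3.47% of all genes as lower in pre-dose and 2.89% as higher. Of 8 mesenchymal markers 3 were lower in pre-dose and 0 higher in limma: COL1A1 (-0.54, adjusted p = 0.00259), TAGLN (-0.35, adjusted p = 7.30e-04) and ACTA2 (-0.25, adjusted p = 0.0251). Their list summed to 30982 and 30478 CPM in pre-dose replicates 2 and 3, against 31429 and 32212 CPM in untreated replicates 2 and 3. FN1 and VIM were the largest parts of that sum, and neither was called (-0.06 and 0.02). Of 3 epithelial markers KRT18 was lower (-0.15, adjusted p = 0.0198 in limma). The epithelial list summed to 1353 and 1347 CPM in pre-dose, against 1428 and 1457 CPM in untreated replicates 2 and 3. KRT8, the largest part of it, was not called (-0.07). Of 3 neuronal markers MAP2 was higher (0.29, adjusted p = 0.0370 in limma). The neuronal list summed to 33.0 and 30.3 CPM in pre-dose, against 24.5 and 27.2 CPM in untreated replicates 2 and 3. MAP2, with a mean of 22.3 CPM over the 6 libraries, was the largest part of it. The part of these markers in the differences of the transporters was not tested.

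The treatment difference of the replicate 1 pair was then set against that of replicates 2 and 3. The difference between them was 0.28 for SLC7A5 (SE 0.055), 0.22 for SLC7A1 (SE 0.063), 0.16 for SLC7A6 (SE 0.088) and 0.16 for SLC38A1 (SE 0.067), and lay between -0.11 and 0.04 for the other 4. A positive value means that pre-dose was less reduced, or more raised, in replicate 1. Limma called 1 of the 8, SLC7A5, beside 1.11% of all genes. That call was lost under quantile normalization and without untreated replicate 2 or untreated replicate 3.

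The offset of replicate 1, the difference between its libraries and those of replicates 2 and 3 with the treatment in the model, was the larger of both measures for 7 of the 8 genes. SLC7A5 averaged 571 CPM in replicate 1 and 333 CPM in replicates 2 and 3, an offset of 0.78 (SE 0.053, 95% interval 0.67 to 0.90), which is 1.72-fold. The offset was 0.92 within pre-dose libraries and 0.65 within untreated libraries. SLC3A2 averaged 172 CPM in replicate 1 and 115 CPM in the others, an offset of 0.57 (SE 0.036). SLC1A5 stood at 0.49 (SE 0.039), SLC7A1 at 0.45 (SE 0.049), SLC1A4 at 0.24 (SE 0.067) and SLC7A6 at 0.21 (SE 0.053). SLC38A1 was at -0.06 (SE 0.044), with an interval from -0.16 to 0.04, and SLC38A2 at -0.32 (SE 0.032), or 0.803 times the level of replicates 2 and 3.

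Both replicate 1 libraries lay above the other 4 for 6 of the 8 transporters, beside 27.2% of all genes, and below them for 1, beside 28.3%. Limma called 6 of the 8 as higher in replicate 1, beside 20.3% of all genes, and 1 as lower, beside 20.6%. The genes were chosen on this offset, so the counts describe them and support nothing. The median offset was 0.35 over the 8 and -0.01 over all genes. The calls of SLC1A4 and SLC7A6 were the weak ones, lost with library quality weights and with 1 library left out. For SLC1A4 that library was untreated replicate 1 or untreated replicate 2, and for SLC7A6 it was pre-dose replicate 1. SLC38A1 was called as lower without pre-dose replicate 1.

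**Figure D3:**
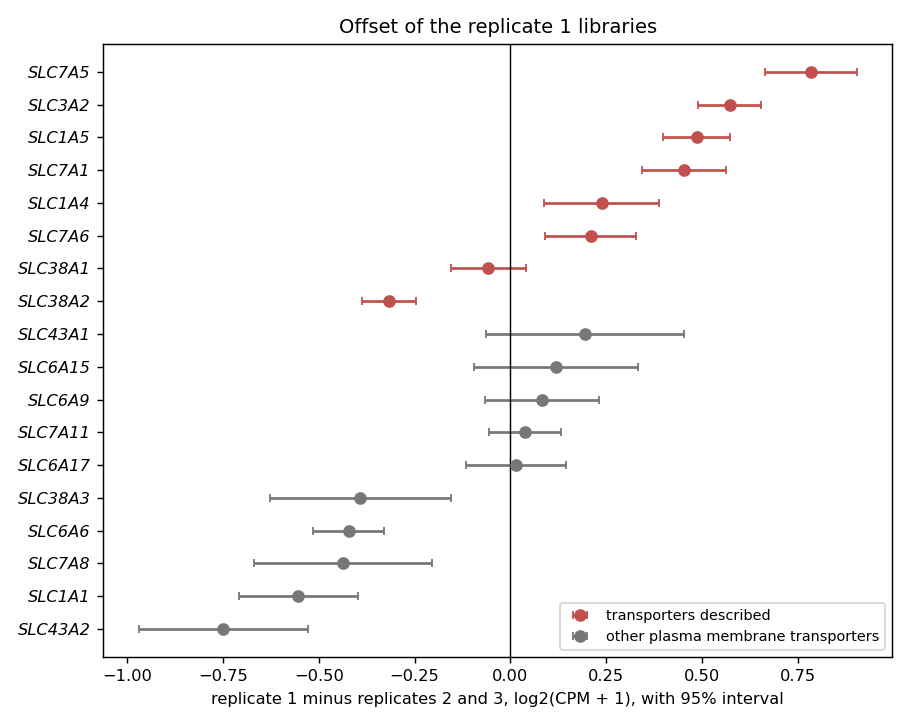
Offset of replicate 1 against replicates 2 and 3 in log2(CPM + 1) (x axis), with 95% intervals from limma, for the 8 transporters (red) and the 10 other plasma membrane amino acid transporters tested (grey). The red points run from 0.78 in SLC7A5 to -0.32 in SLC38A2, and the grey ones from 0.19 in SLC43A1 to -0.75 in SLC43A2.

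Mesenchymal markers moved with replicate 1 as well. Of 8 tested, 1 was higher there (VIM, 0.31, adjusted p = 3.16e-04 in limma), beside 20.3% of all genes. In the other direction 6 were lower, beside 20.6% of all genes, among them COL1A1 (-1.22) and FN1 (-0.62). The 8 markers summed to 25971 to 26155 CPM in replicate 1 and 30478 to 32212 CPM in replicates 2 and 3. FN1 was the largest part of that sum, with means of 12888 CPM in replicate 1 and 19790 CPM in replicates 2 and 3. VIM, the next largest, went the other way, with means of 10965 and 8839 CPM. The sum therefore describes FN1 and VIM more than the other markers. The part of the 8 markers in the offsets of the transporters was not tested.

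Levels were compared between genes per kb of exon. Means over the 6 libraries were 86.9 ± 26.9 CPM per kb for SLC7A5, 85.0 ± 9.73 for SLC38A2, 50.4 ± 9.42 for SLC1A5, 25.9 ± 5.76 for SLC3A2, 17.4 ± 3.19 for SLC7A1, 13.5 ± 0.696 for SLC38A1, 7.53 ± 0.673 for SLC7A6 and 2.18 ± 0.214 for SLC1A4 (SD, n = 6). Within every library SLC3A2 lay above SLC7A1, and SLC7A1 above SLC38A1. SLC7A5 lay above SLC38A2 in the replicate 1 libraries and below it in the others. The order depended on the length used. Over the principal transcript, SLC38A2 came first with 115 CPM per kb against 90.9 for SLC7A5, and SLC3A2 had 62.0 against 58.3 for SLC1A5.

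The ratio of SLC7A5 to its heavy chain was highest in the replicate 1 libraries. Per kb of exon, SLC7A5 was 3.70, 2.90 and 2.99 times SLC3A2 in pre-dose replicates 1 to 3, against 3.57, 3.34 and 3.35 times in untreated replicates 1 to 3. Lengths of principal transcripts divide all 6 ratios by the same constant, giving 1.61, 1.27 and 1.31 in pre-dose and 1.56, 1.46 and 1.46 in untreated replicates 1 to 3. SLC7A11, the cystine carrier that also binds SLC3A2, had 8.98, 8.29 and 8.91 CPM per kb in pre-dose replicates 1 to 3, against 8.50, 8.51 and 8.35 in untreated replicates 1 to 3. SLC7A5 made up 86.8%, 79.7% and 78.6% of the light-chain sum (SLC7A5, SLC7A6, SLC7A8 and SLC7A11) in pre-dose replicates 1 to 3, against 87.7%, 82.7% and 82.2% in untreated replicates 1 to 3. Both replicate 1 libraries thus had the highest ratio and the highest share, and the pre-dose libraries of replicates 2 and 3 the lowest.

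**Figure D4:**
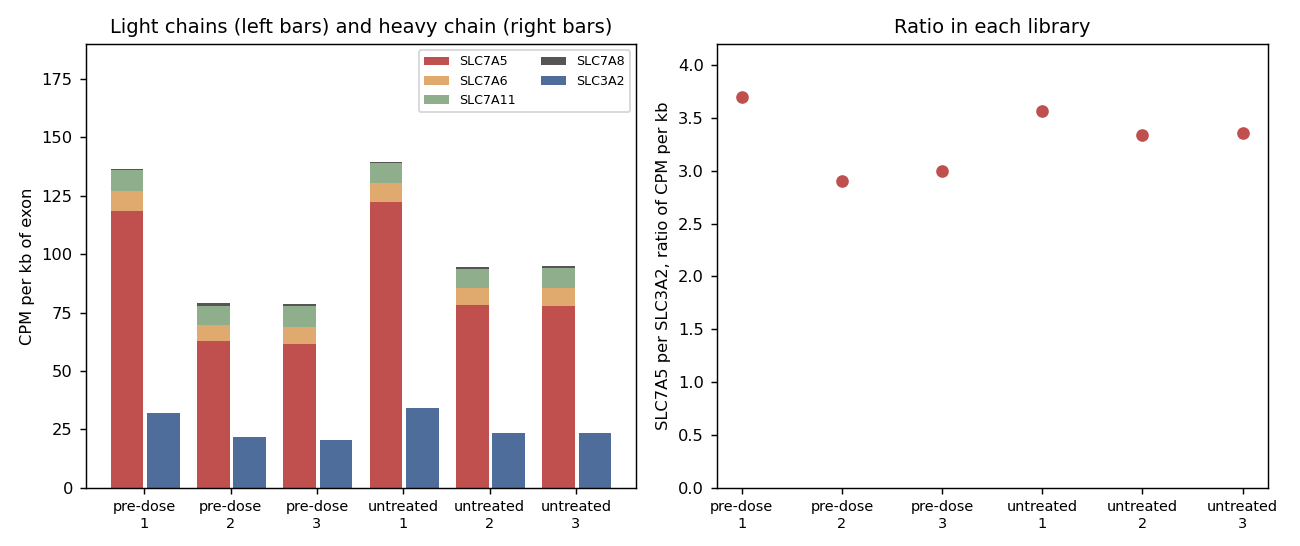
Left: CPM per kb of exon (y axis, from 0) of the light chains, stacked, and of the heavy chain SLC3A2, in each library; right: ratio of SLC7A5 to SLC3A2 per kb in each library. The ratio is 3.70 and 3.57 in the replicate 1 libraries and 2.90 to 3.35 in the others.

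SLC38A2 stood to SLC38A1 as 5.59, 7.12 and 7.33 per kb of exon in pre-dose replicates 1 to 3, against 5.54, 6.12 and 6.16 in untreated replicates 1 to 3. Here replicate 1 was the lowest of each group. SLC1A5 was 24.9, 20.5 and 22.2 times SLC1A4 in pre-dose replicates 1 to 3, against 26.1, 23.2 and 20.8 times in untreated replicates 1 to 3.

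Positions and promoter sequences show where motifs of the factors named above lie near the 8 genes. SLC7A5 lies on chromosome 16 from 87830023 to 87869488 (minus strand), SLC7A6 on chromosome 16 from 68264516 to 68301823 (plus), and SLC3A2 on chromosome 11 from 62856102 to 62888875 (plus). SLC1A5 lies on chromosome 19 from 46774883 to 46788594 (minus), SLC1A4 on chromosome 2 from 64988477 to 65023865 (plus), and SLC7A1 on chromosome 13 from 29509410 to 29595688 (minus). SLC38A1 (46183063 to 46270017) and SLC38A2 (46358189 to 46372867) are neighbours on the minus strand of chromosome 12. These are GENCODE 29 positions on GRCh38.

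All 8 genes had RefSeq promoter windows (GRCh38.p14), 14 in all, since several genes have more than 1 start. Each window held the 250 bases upstream of a start and a short stretch after it. The C/EBP-ATF response element, TGATGNAA on either strand, was found in 5 of the 14 windows, 1 each in 5 of the 8 genes, and in 3.62% of all 35116 windows. The instance TGATGCAA was in 2 of the windows (0.866% of all) and TGATGAAA in 2 (1.11% of all). The E-box CACGTG, the element to which MYC and its partner MAX bind, was in 2 of the windows and in 7.26% of all. The stretches below hold the matches, in capitals and 5′ to 3′ on the strand of the gene, at chr19:46784893-46784922, chr2:64989381-64989410, chr12:46266502-46266531, chr13:29595663-29595692 and chr11:62881725-62881748 for the response element, and at chr16:87869620-87869649 for the E-box.
SLC1A5 response element: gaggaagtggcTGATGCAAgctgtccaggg
SLC1A4 response element, reverse strand: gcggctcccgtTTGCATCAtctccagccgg
SLC38A1 response element: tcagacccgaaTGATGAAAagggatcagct
SLC7A1 response element: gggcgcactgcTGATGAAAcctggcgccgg
SLC3A2 response element, reverse strand: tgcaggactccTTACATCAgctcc
SLC7A5 E-box: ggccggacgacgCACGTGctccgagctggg

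Counted from the RefSeq start site of each window, with the first transcribed base as 1, the element began at base -97 in SLC1A5, -7 in SLC1A4, -4 in SLC38A1, 38 in SLC3A2 and 8 in SLC7A1. The E-box of SLC7A5 began at base -130, and the other E-box was at base -50 of another start of SLC1A5. The matched starts of SLC3A2, SLC1A5, SLC38A1 and SLC1A4 lie 25597, 3780, 3501 and 922 bases from the GENCODE gene start, and the windows at the gene starts of SLC3A2, SLC1A5 and SLC1A4 held no match of either motif. The matched window of SLC7A1 is the one at its gene start, and the start of the SLC7A5 window lies 19 bases from its gene start. A match is a description of these letters. The genes with a response element in a window had offsets of 0.57 (SLC3A2), 0.49 (SLC1A5), 0.45 (SLC7A1), 0.24 (SLC1A4) and -0.06 (SLC38A1). Those with none in their windows had 0.78 (SLC7A5), 0.21 (SLC7A6) and -0.32 (SLC38A2). Sequence outside the windows was not searched, and whether these sets differ was not tested.

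ATF4 itself had 186, 164 and 170.1 CPM in pre-dose replicates 1 to 3, against 197, 189.9 and 192 CPM in untreated replicates 1 to 3. The groups did not overlap, with every pre-dose library lower, but the treatment difference of -0.16 (SE 0.063) did not pass in limma (adjusted p = 1.00). In replicates 2 and 3 alone ATF4 fell by 0.20 in pre-dose (adjusted p = 0.00927 in limma). Its offset of 0.10 did not pass (adjusted p = 0.0568 in limma). MYC had 61.8, 43.8 and 49.0 CPM in pre-dose replicates 1 to 3, against 59.0, 53.9 and 53.1 CPM in untreated replicates 1 to 3. MYC was higher in replicate 1 by 0.27 (adjusted p = 0.00871 in limma), and its difference of -0.20 in replicates 2 and 3 did not pass (adjusted p = 0.0587 in limma).

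Of the ATF4 pathway, 30 genes were tested, and 0 passed for the treatment in either direction, PYCR1 (-0.19) and ATF4 having the smallest unadjusted p (0.0194 and 0.0391). PYCR1 makes proline. Against replicates 2 and 3, 8 of the 30 were higher in replicate 1 and 3 lower, beside 20.3% and 20.6% of all genes. GCN1, an activator of the amino acid sensor kinase GCN2, was higher by 0.22, the partner factor CEBPG by 0.33 and PHGDH, which opens serine synthesis, by 0.30. The lipoprotein receptor VLDLR (-0.58), NUPR1 (-0.33) and CEBPB (-0.21) were lower. The list's median offset was 0.02. In replicates 2 and 3 alone 1 gene was higher and 3 were lower in pre-dose, beside 2.89% and 3.47% of all genes. The higher one was STC2, at 0.15 (adjusted p = 0.0316 in limma). ATF4 was among the lower ones, with PYCR1 at -0.21 (adjusted p = 0.0247 in limma). The third was ASNS, the asparagine synthetase, at -0.48 (adjusted p = 0.0476 in limma) and a mean of 6.64 CPM.

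Genes that use what these carriers bring in went several ways. Among 16 genes of glutamine use, 8 were higher in replicate 1 and 3 lower, beside 20.3% and 20.6% of all genes, with a median offset of 0.18. The higher ones with the smallest p were PFAS of purine synthesis (0.58), CAD of pyrimidine synthesis (0.52) and CTPS1, which makes CTP (0.42). GFPT1 of the hexosamine pathway (-0.18) and the NAD synthetase NADSYN1 (-0.15) were among the lower ones. Among 10 genes of arginine use and polyamines, 4 were higher and 2 lower, beside the same shares of all genes. The polyamine synthesis enzymes SRM (0.52), ODC1 (0.49) and SMS (0.40) were higher, while SAT1 (-0.69), which marks polyamines for export and breakdown, and the antizyme inhibitor AZIN2 (-0.64) were lower. Among 8 genes of branched-chain amino acid breakdown, set beside the same shares, 1 was higher, the kinase BCKDK (0.13), and 4 were lower, among them the aminotransferase BCAT1 (-0.29), PPM1K (-0.35) and BCKDHA (-0.20).

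Of 35 genes that pass amino acid signals to mTORC1, 10 were higher in replicate 1 and 6 lower, beside 20.3% and 20.6% of all genes, with a median of 0.05 near that of all genes. SEH1L of the GATOR2 complex (0.33), NPRL3 of GATOR1 (0.32) and the mTOR partner MLST8 (0.30) were higher, and the leucine sensor relative SESN1 (-0.69) and the folliculin partners FNIP1 (-0.25) and FNIP2 (-0.20) were lower. In replicates 2 and 3 alone, 4 of the 35 were higher in pre-dose and 0 lower, beside 2.89% and 3.47% of all genes. SESN2, a leucine sensor and p53 target, was among them at 0.61 (adjusted p = 0.00254 in limma), and SESN1, also a p53 target, at 0.55 (adjusted p = 0.00822 in limma). The others were RPTOR at 0.23 (adjusted p = 0.0162 in limma) and TSC2 at 0.14 (adjusted p = 0.0443 in limma). SESN2 averaged 16.6 CPM in pre-dose and 11.8 CPM in untreated libraries, and its treatment difference of 0.43 did not pass (adjusted p = 1.00 in limma).

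The same offset was read in other amino acid carriers. Of 30 other plasma membrane amino acid transporters, 10 were listed and tested, 0 were higher in replicate 1 and 5 were lower, beside 20.3% and 20.6% of all genes, with a median offset of -0.19. SLC43A2, a facilitative carrier of large neutral amino acids, had an offset of -0.75, SLC1A1, a glutamate and aspartate carrier, -0.55, and the taurine carrier SLC6A6 -0.42 (adjusted p between 9.40e-05 and 3.49e-04 in limma). Whether this list differed from the 8 was not tested, since the 8 were chosen on the offset. Of 8 lysosomal transporters, beside the same shares, 1 was higher, SLC66A1 (0.26), an exporter of arginine and lysine, and 0 were lower. Of 10 genes of transporter turnover, beside the same shares, 1 was higher, the ubiquitin ligase NEDD4L (0.24), and 2 were lower, TXNIP (-0.78) and NDFIP2 (-0.19). Of 10 genes of the MYC network, 2 were higher, MYC and MLX (0.15), and 2 lower, MXI1 (-0.75) and MXD4 (-0.47), close to the 20.3% and 20.6% of all genes. For the treatment, limma called 0 genes in each of these lists.

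**Figure D5:**
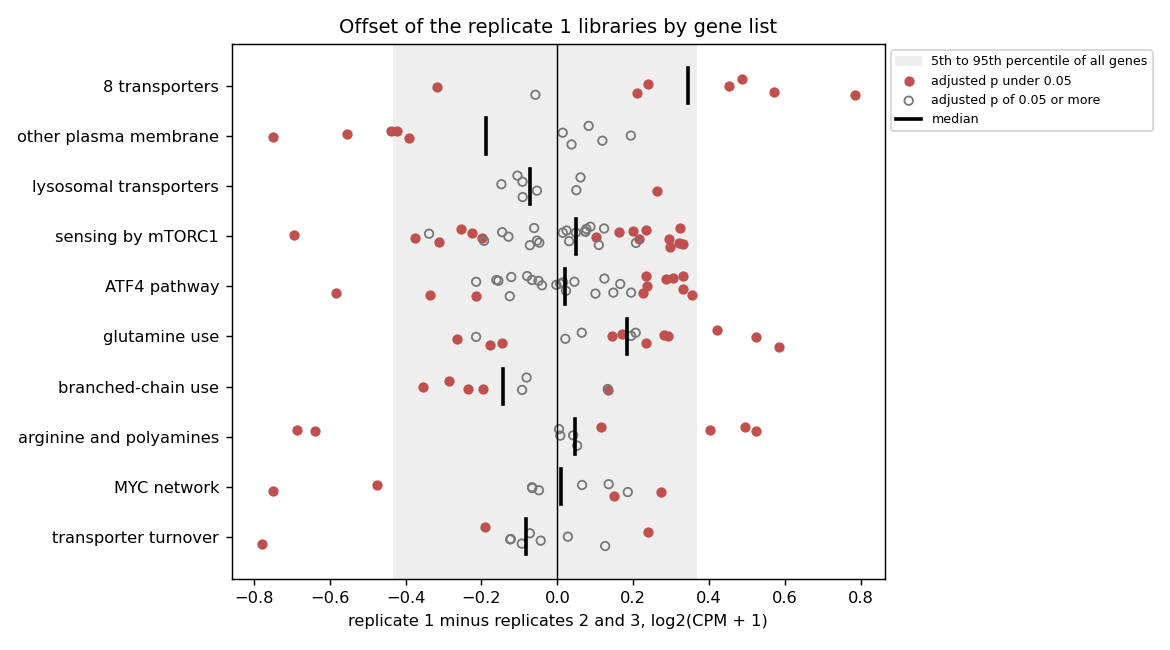
Offset of replicate 1 against replicates 2 and 3 in log2(CPM + 1) (x axis) for the tested genes of each list, 1 point per gene, filled where limma's adjusted p is under 0.05; vertical spread has no meaning. Black bars are list medians, 0.35 for the 8 transporters and -0.19 for the other plasma membrane transporters, and the grey band spans the 5th to 95th percentile of all genes, -0.43 to 0.37.

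Genes with the most similar pattern were found by the root mean square difference of their log2(CPM + 1) values, each centred on its mean over the 6 libraries. For SLC7A5 they were SAPCD2 (0.0695), FJX1 (0.0755) and UBE2S (0.0799). SLC3A2 lay nearest to DUS3L, AIMP2 and EZR, SLC1A5 to F12, CENPX and TEAD4, and SLC7A1 to DKC1, SRSF2 and YWHAH. SLC38A2 lay nearest to DNASE1, NFIA and TFEB, SLC1A4 to ZPR1, HSF1 and OGG1, SLC38A1 to TMEM189, PDIA4 and EML4, and SLC7A6 to CKLF, PARD6G-AS1 and DHX15. Only 10 genes came within 0.1 of SLC7A5, while 177 came within 0.1 of SLC3A2 and 3953 of SLC38A1, whose libraries varied least. Among the 8 themselves, SLC1A4 and SLC7A6 were the closest (0.0715), and SLC7A5 and SLC38A2 the farthest apart (0.547).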

How the data were processed

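Poly-A RNA of 6 libraries was sequenced as paired reads of 150 bases, per the labels' protocols. Per the submitters' processing notes, hg38 was the build and the tools included DRAGEN, bcl2fastq, limma and edgeR. The deposited columns hold log2 CPM of estimated counts per gene, as the authors made them, and were turned to CPM as powers of 2. The authors also deposited a comparison with log2 fold changes, p-values, adjusted p-values and a B score, of which the B score was not used. Of 13773 rows, 77 repeated an identifier and were dropped, and 0 columns were unmapped. The effective read total of each library was recovered from its lowest values.

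Genes that averaged 1 CPM or more were tested with limma 3.58.1 (R 4.3.3) on log2(CPM + 1), Benjamini-Hochberg adjusted over all 13616 genes, threshold 0.05. A fold change on that scale understates the change of low genes. The tests were run on simulated data first. The fits were the treatment difference with no block, the replicate 1 offset with treatment as a covariate, their interaction, and replicates 2 and 3 alone. Intervals are limma's at 95%. Deviations from the group means correlated between same-numbered libraries at 0.66, 0.45 and 0.18, and equal numbers were treated as pairs. Crossed matches of replicates 2 and 3 correlated better. These were pre-dose replicate 2 with untreated replicate 3 (0.51) and pre-dose replicate 3 with untreated replicate 2 (0.28). The correlations thus do not show which libraries of replicates 2 and 3 belong together, and the labels do not state a pairing. Pair differences and blocks within replicates 2 and 3 rest on the numbers alone. The block changed no call of the treatment difference.

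The 8 genes and the gene lists were chosen with earlier results of these data known. From each list the text names, for the treatment difference and the offset, the genes past the threshold with the 3 smallest adjusted p in each direction, or the 2 smallest unadjusted p where none passed. It names ATF4 and MYC throughout, and for each transporter its 3 nearest genes; some items that this rule covers are not reported here. Exon lengths came from GENCODE 29, which held 13630 of the 13696 identifiers, and promoters from RefSeq GRCh38.p14. Figures were drawn with matplotlib 3.10.9.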

Additional observations from a re-analysis of the deposited data

Results flagged for a closer look

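The treatment difference of SLC7A5 in the replicate 1 pair exceeded that in replicates 2 and 3 by 0.28 in log2(CPM + 1) (SE 0.055, adjusted p = 0.0438 in limma, over 0.0244 to 0.0689 among the scaling, filter and weighting alternatives). With 1 library of replicates 2 and 3 left out, the adjusted p in limma ran from 5.63e-06 to 0.163, and it missed the threshold without untreated replicate 2 (0.163), without untreated replicate 3 (0.126) and under quantile normalization (0.0689). The spread behind that test comes from replicates 2 and 3 alone, with 1 library per group in replicate 1, and the gene was chosen with its values known.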

How the results depend on the processing

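For the treatment difference, the count of 0 called genes became 108 with library quality weights, 866 in replicates 2 and 3 only, and 418 in the authors' deposited table. It was 0 with a replicate block (1443 at an unadjusted p of 0.05) and with each single library left out. The 5560 genes called for the replicate 1 offset became 3117 with quality weights. The 151 called for the difference between pairs became 30 under quantile normalization and 115 to 1104 with 1 library left out (826 without pre-dose replicate 2, 1104 without pre-dose replicate 3), and could not be fitted without a replicate 1 library. The 866 called in replicates 2 and 3 became 361 to 2207 with 1 library left out: 2207 without pre-dose replicate 3, 1410 without pre-dose replicate 2, 370 without untreated replicate 2 and 361 without untreated replicate 3. They became 1227 with a replicate block, which takes equal numbers as pairs and was chosen after seeing the data. The cause was not tested. With 1 library of a group left in these fits, it is assumed to vary like the others.

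For single transporters, leaving out 1 library moved the treatment difference of SLC7A5 over -0.54 to -0.02, of SLC3A2 over -0.32 to 0.06, of SLC1A5 over -0.18 to 0.15 and of SLC38A2 over -0.02 to 0.19. The least abundant, SLC1A4, rested on 352 to 531 estimated counts per library, and SLC38A2 on 14049 to 18963.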
